A study of Danio rerio with 6 samples.

Results

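The 6287 regions described here are the intergenic H3K9ac peaks of the uncut zebrafish heart: peaks to which the authors' annotation gave neither a transcription start site (TSS) nor a gene. They were taken from the 16264 unique peaks of the uncut H3K9ac list, out of 66487 peaks in all 6 deposited lists. Peaks that start on chromosome 4 at 28 Mb or beyond, on its heterochromatic long arm, were left out, which removed 628 intergenic peaks. The remaining uncut H3K9ac peaks outside that arm served for comparison: 7982 annotated at a TSS and 1240 annotated in a gene but at no TSS. Each region was followed in the H3K9ac lists of later times by overlap of at least 1 bp, with its tags (reads counted inside the peak) and its called width.

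Acetylation of histone H3 at lysine 9 (H3K9ac) is placed by acetyltransferases such as Gcn5 and PCAF and removed by histone deacetylases. It marks active promoters, and it also occurs at active enhancers, which regulate genes from a distance. Trimethylation of the same lysine (H3K9me3) marks heterochromatin and repeats, and a single histone tail cannot carry both marks on that residue.

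Chromatin came from heart tissue of zebrafish (Danio rerio) aged 1 to 1.5 years, either uncut or taken 6 or 9 days after the tip of the ventricle had been cut off (days postamputation, dpa). ChIP-seq with an H3K9Ac antibody (Abcam) and an H3K9M3 antibody (Millipore; H3K9me3 here) gave 1 library for each mark and time, 6 in all. The strain, sex and genotype of the fish and the number of hearts in a library are not given in the sources used here. Every difference below therefore compares libraries, has no replicate check and carries no p, and intervals cover counting error only. In whole tissue, a change in the mix of cells and a change of the mark within a cell cannot be told apart.

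The 3 H3K9ac lists held 16264 peaks in uncut heart, 17525 at 6 dpa and 17223 at 9 dpa, with 1902151, 2066547 and 2206341 tags inside peaks. The background recovered from scores and tags, a measure of relative depth, was 14.63 reads per kb in the uncut H3K9ac library, 11.25 at 6 dpa and 15.01 at 9 dpa, and 4.10, 10.83 and 9.24 in the H3K9me3 libraries. H3K9ac promoter peaks stood at 8 of 8 heart genes in the uncut list, at 7 at 6 dpa and at 8 at 9 dpa, with 1318, 595 and 1392 tags in sum. Of the red cell and thrombocyte genes that the lists name, 15 of 18 had one in uncut heart, 16 at 6 dpa and 15 at 9 dpa, with 2925, 3788 and 4243 tags in sum. For leukocyte and inflammation genes it was 7, 10 and 8 of 12, with 1101, 1496 and 1360 tags. Among markers of other tissues only the crystallin gene crygn2 had an uncut promoter peak (50 tags), of 2 that the lists name. A gene is named only where a peak of some list was annotated to it, so these shares are partly fixed in advance. The 4 marker sets held 8 heart, 26 red cell and thrombocyte, 24 leukocyte and inflammation and 20 other symbols before that filter. The part of these blood cells and of depth in the results below was not tested.

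Most intergenic members lay far from the nearest TSS that the lists name. The median distance from a peak's centre was 56.3 kb, with quartiles of 23.9 and 129 kb. Within 10 kb lay 550 members (8.75%, Wilson 95% interval 8.07 to 9.47), and within 50 kb 2921 members (46.5%, 45.2 to 47.7). They lay on either side of genes alike: 3221 (51.2%) were upstream of that TSS. The closest peak edge was 3007 bp from a TSS, at the border of the authors' annotation window of 3 kb. The 72 members with an edge within 4 kb had a median of 99.5 tags, and the 121 TSS-annotated peaks with an edge 2 to 3 kb away had 99.

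Intergenic here means that the authors' annotation tied the peak to no TSS and no gene. The listed genes are those tied to a peak in some list, so a gene without a peak is not among them. The distances above are thus not distances to the nearest gene of the annotation. Both flanking listed genes could be placed in the newer GRCz12tu assembly (NCBI table, used for gene order alone) for 5656 members (90.0%). In 5336 of these (94.3%) at least 1 further protein-coding gene lies between the flanking genes, with a median of 4. Whether a given member lies in or at the start of such a gene was not examined, nor whether the authors' annotation held these genes. Of the 320 members with no further gene between, 75.3% were overlapped at 6 dpa and 79.1% at 9 dpa, against 78.4% and 81.8% of the others.

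In the uncut library the members were narrower and carried fewer tags than promoter peaks. Their median was 77 tags (quartiles 48 and 121) over 1353 bp, against 115 tags (82 and 155) over 1593 bp at a TSS. In peaks annotated in a gene only it was 65 tags over 1259 bp. Per kilobase the medians were 54.2, 70.5 and 48.6 tags. The authors' fold enrichment over background had medians of 5.86, 6.45 and 5.49.

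The upper tail of the members was longer than that of promoter peaks. Members of at least 300 tags numbered 185 (2.94%) and held 23.8% of all member tags, whereas 166 TSS peaks (2.08%) held 6.75% of theirs. Members of at least 1000 tags numbered 49 and held 14.1%, against 3 TSS peaks with 0.467%. Peaks in a gene only stood between by share of tags, though not by share of peaks: 19 (1.53%) of at least 300 tags held 13.8% of their tags, and 5 of at least 1000 tags held 7.22%. These tag-rich members sat in dense surroundings: the local background against which a peak was scored was at least 3 times the library's in 165 of the 175 members of at least 300 tags for which the score allowed it to be recovered, but in 252 (4.01%) of all members. Their median fold enrichment was 6.34. The part of local read density in their tag counts was not tested.

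Most members were overlapped by an H3K9ac peak after amputation, a smaller share than of promoter peaks. At 6 dpa 4912 of 6287 were overlapped (78.1%, 77.1 to 79.1), against 96.6% of TSS peaks (96.2 to 97.0) and 67.8% of peaks in a gene only (65.2 to 70.4). The 1375 members without a 6 dpa peak make up 21.9%, where the share over all uncut H3K9ac peaks is 14.2%. At 9 dpa 5116 were overlapped (81.4%, 80.4 to 82.3), against 96.5% and 75.2%. The 1171 without a 9 dpa peak make up 18.6%, beside 12.1% of all uncut peaks. An absent peak is one that did not reach the authors' lowest score, not a measured zero.

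Read together against the same uncut list, 4509 members (71.7%) had a peak at both later times, 403 (6.41%) at 6 dpa only, 607 (9.65%) at 9 dpa only and 768 (12.2%) at neither, where the share of all uncut peaks with neither is 7.71%. The 4 groups differed in their uncut tags, with medians of 94, 47, 48 and 39. Nearly all later peaks were again intergenic. At 6 dpa 14 members met a peak annotated at a TSS and 17 a peak in a gene, and at 9 dpa these were 17 and 16.

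Peaks with few uncut tags were missed more often later, and members had more of them. Of members under 50 tags 48.5% (46.1 to 50.8) were overlapped at 6 dpa, of those with 50 to 99 tags 83.2% (81.7 to 84.7), with 100 to 149 tags 94.98% (93.6 to 96.1) and with 150 to 299 tags 96.5% (95.04 to 97.6). TSS peaks of the same tag counts were overlapped in 79.1%, 94.6%, 99.1% and 99.6%, so members were lower in each of these bins. By the authors' score the order was the same. Members scored 50 to 75 were overlapped in 49.8% at 6 dpa and 52.3% at 9 dpa, and those scored 200 or more in 98.2% and 99.6%.

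**Figure D1:**
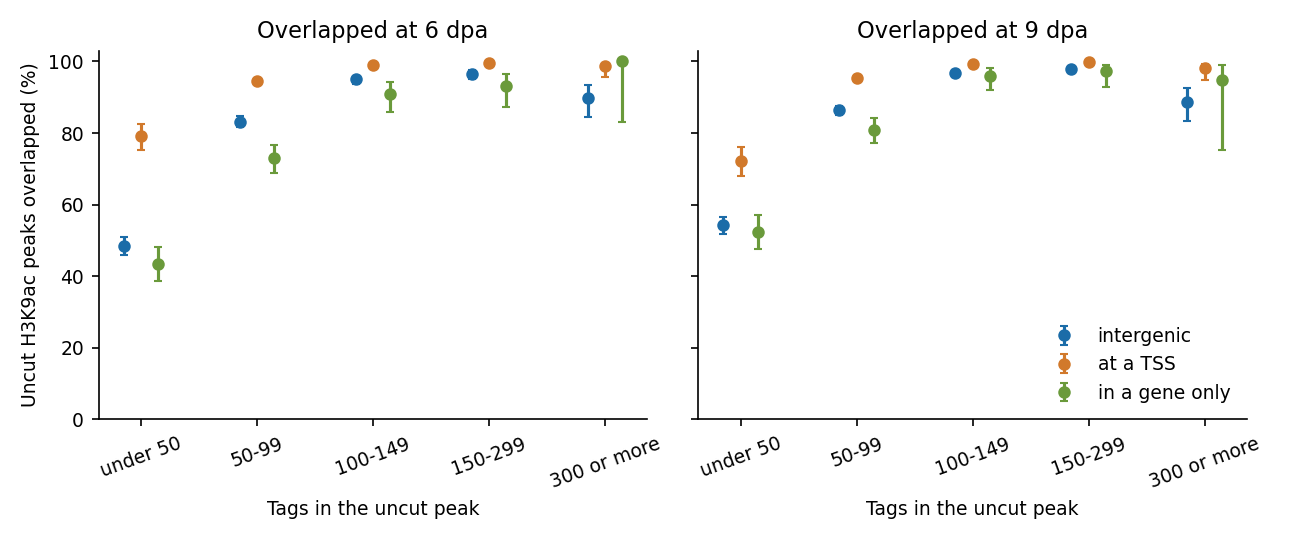
Share of uncut H3K9ac peaks overlapped by an H3K9ac peak at 6 dpa (left) and 9 dpa (right), by tags in the uncut peak, for intergenic members, TSS peaks and peaks in a gene only; bars are Wilson 95% intervals. The members rise from 48.5% under 50 tags to 96.5% at 150 to 299 tags at 6 dpa and fall back to 89.7% at 300 tags or more.

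The members with the most tags broke the order by tags, while no such break appeared by score. Of the 185 with at least 300 tags, 166 were overlapped at 6 dpa (89.7%, 84.5 to 93.3) and 164 at 9 dpa (88.6%, 83.3 to 92.5), against 98.8% and 98.2% of TSS peaks with as many tags. The 132 of them with an H3K9me3 peak in some list were overlapped in 96.2% at 6 dpa, and the 53 without one in 73.6%. At neither time had 12 of the 185 a peak, and 10 of these 12 were among the 53.

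The 8 members with the most uncut tags show both outcomes. The first, on chromosome 7 from 52739544 to 52745727, 63.8 kb from the TSS of cdkn2aip, had 5498 tags in uncut heart, 5279 at 6 dpa and 5250 at 9 dpa. The second, on chromosome 13 from 15363439 to 15372360 (nearest TSS mark3, a protein kinase gene, at 81.9 kb), had 4592 and 4565 tags and no peak at 9 dpa. The third, on chromosome 16 from 26052331 to 26059793 (nearest TSS mrpl17, a mitochondrial ribosome gene, at 91.4 kb), had 4213 tags and no later peak at all. Its score was 64.84, close to the lowest one listed, and its local background was 35.7 times the library's. The ratio was 38.1 for the first region and 31.7 for the second, and their scores were 2264.26 and 119.87. The part of score and of local background in the missing peaks was not tested.

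The 5 others had a peak at both times. They were nearest to tmf1 (4150, 4081 and 3961 tags), mrgbp (3937, 3750 and 3763), mrpl17 again (3872, 3652 and 3660), the chaperonin gene cct5 (3087, 2774 and 2918) and the glutamyl-prolyl-tRNA synthetase gene eprs (3065, 3328 and 3388). In this order the TSS were 216, 85.8, 80.8, 639 and 241 kb away from the 5 regions. Their log2 changes, relative to the median region as explained below, lay between -0.28 and 0.04 at the 2 times. Per kilobase the region nearest to eprs was lower, at -0.78 and -0.88. Its called width went from 4322 bp to 7961 and 8124 bp. The others lay between -0.37 and -0.18 per kilobase.

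The other members with many tags and no later peak were less extreme. After the region nearest to mrpl17, the next in tags were nearest to tpcn2 (chromosome 7, 54776709 to 54781769, at 26.7 kb, 1421 tags) and rwdd3 (chromosome 2, 19830109 to 19835714, at 150 kb, 1226). Then came 2 regions on chromosome 5 nearest to taf6, a general transcription factor gene, at 143 and 281 kb with 553 and 511 tags. The last was nearest to fbxl22 (chromosome 25, 26040734 to 26045897, at 249 kb, 483 tags). None of the 6 had an H3K9me3 peak in any list. Their local background was 5.05 to 35.7 times the library's. In the order named, their scores were 64.84, 513.29, 126.75, 76.23, 221.33 and 65.74, where the list starts at 50. In all members of at least 300 tags with a recovered value the median was 5.24 times, the upper quartile 7.97 and the highest 38.1.

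H3K9me3 peaks met the members far more often than they met promoter peaks. In uncut heart 941 members were overlapped by one (15.0%, 14.1 to 15.9), beside 8.99% of all uncut H3K9ac peaks and 1.12% of TSS peaks. At 6 dpa it was 1392 (22.1%) beside 14.6% of all, and at 9 dpa 1320 (21.0%) beside 12.5%. An H3K9me3 peak in at least 1 list was found at 1666 members (26.5%, beside 17.3%), and in all 3 lists at 804 (12.8%, beside 7.52%). In peaks annotated in a gene only the shares were higher still, 39.8% in any list and 18.5% in all. Overlap of lists from a tissue does not show that both marks sit on the same chromosome copy or in the same cells.

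The 804 members with H3K9me3 at every time were overlapped by later H3K9ac peaks more often than those without it. Of them 705 (87.7%, 85.2 to 89.8) had one at 6 dpa and 702 (87.3%, 84.8 to 89.4) at 9 dpa, against 81.0% and 82.6% of the 4621 members with no H3K9me3 peak. Members with H3K9me3 in 1 or 2 lists were overlapped less, in 53.8% (50.5 to 57.1) and 69.1% (66.0 to 72.1). Within these, the share at 6 dpa was lowest in the 185 with an H3K9me3 peak at 9 dpa alone. There 45 (24.3%, 18.7 to 31.0) were overlapped by H3K9ac at 6 dpa and 131 (70.8%, 63.9 to 76.9) at 9 dpa. The 43 with H3K9me3 in uncut heart and at 9 dpa, but not at 6 dpa, were next lowest at 6 dpa, with 17 (39.5%, 26.4 to 54.4). The 185 had a median of 50 uncut tags and the 43 one of 47, against 81 in members without H3K9me3.

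At the 804 members the H3K9me3 peaks held a median of 42 tags in uncut heart, 82 at 6 dpa and 68 at 9 dpa, while the background of those libraries rose from 4.10 to 10.83 and 9.24 reads per kb. The depth of the H3K9me3 libraries thus moved with the number of members overlapped, and its part was not tested. The members with the most tags carried H3K9me3 most often: 71.4% (64.5 to 77.4) of those with at least 300 tags had it in some list, against 15.7% of such TSS peaks. This was not particular to members: of the 19 such peaks in a gene only, 16 (84.2%, 62.4 to 94.5) had it. The 3 with the most tags among members with H3K9me3 at every time are the regions nearest to tmf1, mrgbp and the second one near mrpl17 named above. The tmf1 region, on chromosome 11 from 17430332 to 17434872, held 3823 H3K9me3 tags in uncut heart, 5578 at 6 dpa and 4865 at 9 dpa.

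Members far from listed genes were overlapped less often by H3K9ac and more often by H3K9me3. Within 10 kb of a listed TSS 85.5% (82.3 to 88.2) had a 6 dpa H3K9ac peak, from 10 to 50 kb 83.8%, from 50 to 200 kb 75.9%, and beyond 200 kb 65.0% (61.9 to 68.0). At 9 dpa the shares were 86.5%, 84.2%, 80.2% and 74.0%. H3K9me3 in any list rose over the same steps from 14.0% (11.3 to 17.2) through 20.4% and 29.1% to 42.9% (39.7 to 46.1). Uncut tags fell, with medians of 84, 82, 74 and 62. Distance, tags and H3K9me3 thus moved together, and their separate parts were not tested.

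**Figure D2:**
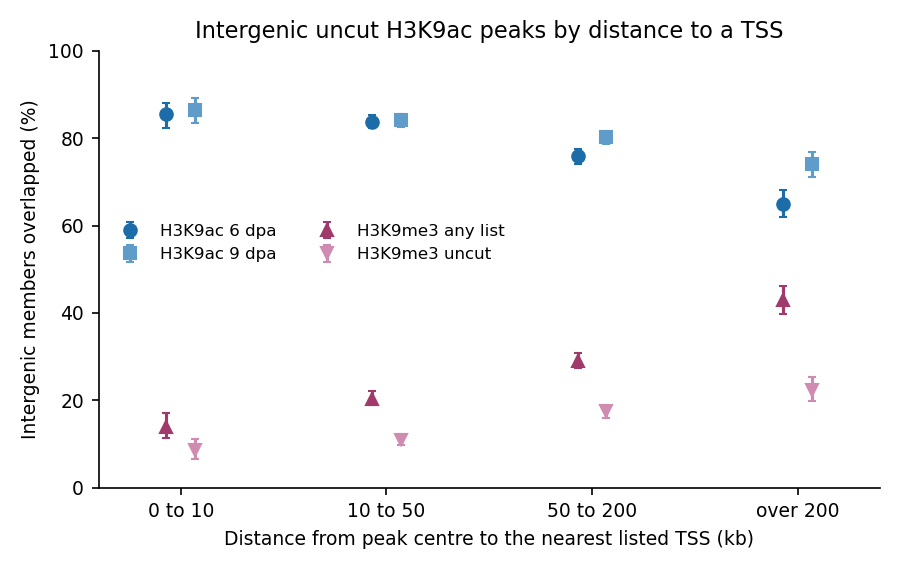
Share of intergenic members overlapped by H3K9ac at 6 and 9 dpa and by H3K9me3 in uncut heart or in any list, by distance in kb from the peak centre to the nearest listed TSS; bars are Wilson 95% intervals. H3K9ac at 6 dpa goes from 85.5% to 65.0% and H3K9me3 in any list from 14.0% to 42.9%.

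Where a later peak existed, the members' tags changed little as a group. Tags were summed over each group of overlapping peaks, and a log2 change was taken relative to the median of all shared H3K9ac regions, 13904 at 6 dpa and 14232 at 9 dpa. The members' median was -0.03 at 6 dpa (quartiles -0.30 and 0.23, 4902 regions) and -0.02 at 9 dpa (-0.23 and 0.19, 5101 regions). TSS regions had 0.03 and 0.02, and regions in a gene only -0.08 and -0.03. Per kilobase of called width the members' medians were -0.05 and -0.02. With tags scaled to each library's background, 0.46 is added to all log2 changes of the 6 dpa comparison and 0.16 to those of the 9 dpa one, so the sign of these small changes depends on the scale.

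In the 4466 members with a single matching peak at both later times, median tags were 94 in uncut heart, 98 at 6 dpa and 109 at 9 dpa. Their median width was 1486, 1545 and 1574 bp, and their tags per kilobase were 61.5, 61.1 and 66.5. Members with H3K9me3 in all 3 lists stood lower. Their median log2 change was -0.20 at 6 dpa (quartiles -0.42 and 0.01, 702 regions) and -0.16 at 9 dpa (-0.34 and 0.04, 701 regions), against 0.02 at each time in members without H3K9me3. Scaled to the background, the medians of the former were 0.26 and -0.00048. Per kilobase they were -0.22 and -0.12.

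**Figure D3:**
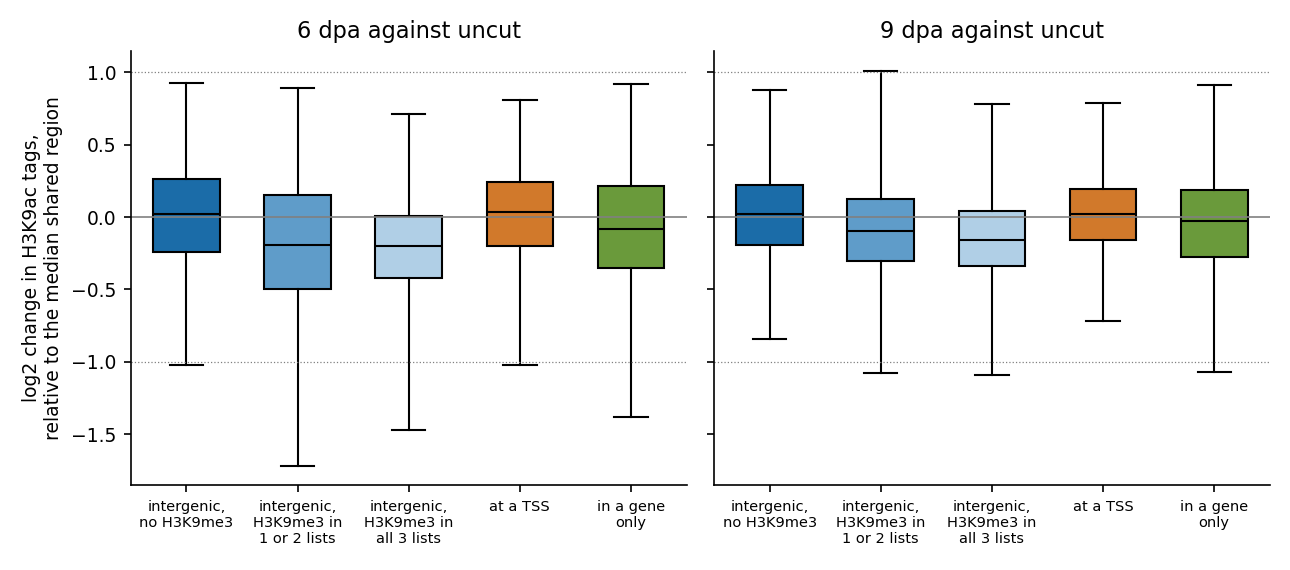
Log2 change in H3K9ac tags relative to the median shared region at 6 dpa (left) and 9 dpa (right), for intergenic members by H3K9me3 peaks, TSS regions and regions in a gene only; boxes are quartiles, whiskers the 1st and 99th percentile, dotted lines a change of 2-fold. Members with H3K9me3 in all 3 lists have medians of -0.20 and -0.16, and those without H3K9me3 0.02 and 0.02.

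Few of the members with a later peak changed by 2-fold. The 1375 members without a peak at 6 dpa and the 1171 without one at 9 dpa have no later tag count and are not in these counts. A fall that took a member below the lowest score is therefore not counted here. At 6 dpa 41 regions were at least 2-fold higher (0.836%, beside 0.511% of all shared regions) and 106 at least 2-fold lower (2.16%, beside 2.03%). At 9 dpa 37 were higher (0.725%, beside 0.541%) and 38 lower (0.745%, beside 0.548%). The share lower at 6 dpa is near that of all regions, and the others are slightly above it. On the background scale, which shifts all shared regions alike, the split was 331 higher and 24 lower at 6 dpa, and 69 and 13 at 9 dpa. The share over all shared regions was not counted on that scale, so these counts show nothing particular to the members.

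Most of these changes went with the width that was called. All but 1 of the 41 higher at 6 dpa were wider than in uncut heart, with medians of 57 tags over 1157 bp before and 153 tags over 2490 bp after. Of the 106 lower regions 105 were members with a single later peak; each of these was narrower, with 105 tags over 1970 bp before and 45 over 1175 bp after. Per kilobase, 1 member was 2-fold higher at 6 dpa (0.0204%, beside 0.0216% of all shared regions) and 9 were 2-fold lower (0.184%, beside 0.187%). At 9 dpa 0 were higher (beside 0.00703%) and 2 lower (0.0392%, beside 0.0351%). These shares are near those of all regions. Of the members lower in tags, 60.0% at 6 dpa and 55.3% at 9 dpa had an H3K9me3 peak in some list. Of those higher in tags it was 6 of 41 (14.6%) at 6 dpa and 12 of 37 (32.4%) at 9 dpa. Among all 6287 members, with or without a later peak, the share was 26.5%, so only the first of these 2 was below it. The same shares over all shared regions are not given here.

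**Figure D4:**
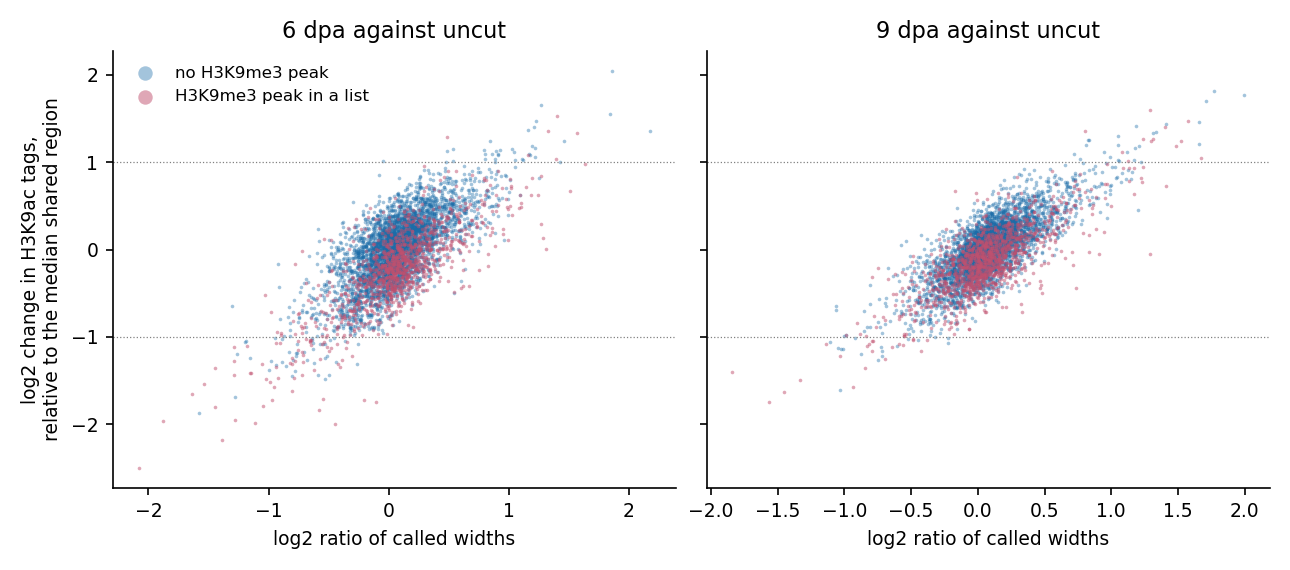
Log2 ratio of called widths (x) against log2 change in H3K9ac tags relative to the median shared region (y) for members with a single later peak, at 6 dpa (left) and 9 dpa (right), coloured by H3K9me3 peaks; dotted lines mark 2-fold. Points past 2-fold lie mostly at widths that grew or shrank: 40 of 41 higher members at 6 dpa were wider.

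The largest rise at both times was on chromosome 20 from 2415983 to 2416840, 151 kb from the TSS of the Mediator subunit gene med23. It had 45 tags over 858 bp in uncut heart, 197 over 3105 bp at 6 dpa and 181 over 2925 bp at 9 dpa. Its log2 change was 2.05 (counting interval 1.58 to 2.51) and 1.81 (1.34 to 2.28), and per kilobase 0.26 and 0.12. The region near fam78ab (chromosome 5, 71221561 to 71222723) had 50, 153 and 173 tags, and the promoter peak of that gene, 11.5 kb away, 187, 347 and 354. Near the kinase gene map2k2a (MEK2), a member had 53, 177 and 154 tags, and near the ferredoxin gene fdx1l 53, 155 and 145. A member 252 kb from sim1a, which encodes a basic helix-loop-helix factor, had 57, 159 and 161, with no promoter peak at sim1a at any time.

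At 9 dpa the list of rises also held a member 9.72 kb upstream of ddit4, a stress-induced inhibitor of mTORC1 signalling. Located on chromosome 12 from 48346581 to 48347592, it had 42 tags in uncut heart, 54 at 6 dpa and 130 at 9 dpa. Its log2 change was 0.28 (-0.30 to 0.86) at 6 dpa and 1.43 (0.93 to 1.94) at 9 dpa, and per kilobase 0.04 and 0.10. The ddit4 promoter had no H3K9ac peak in the uncut list, then 163 and 137 tags. The remaining rises at 9 dpa were 427 kb from the TSS of hykk.2 (56, 89 and 208 tags) and 55.6 kb from that of si:ch211-191a24.4 (44, 104 and 134).

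The largest fall at both times was on chromosome 12 from 47087909 to 47091169, 45.4 kb upstream of the methionine synthase gene mtr. It had 155 tags over 3261 bp, 29 over 770 bp at 6 dpa and 53 over 1102 bp at 9 dpa. Its log2 change was -2.50 (-3.07 to -1.93) and -1.74 (-2.19 to -1.29), but per kilobase -0.35 and -0.10. The promoter of mtr itself had 102, 85 and 122 tags.

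The other 4 regions with the largest falls at 6 dpa had more tags at 9 dpa. A member on chromosome 8 from 51952091 to 51953530, nearest to the lipid transfer gene vps13a at 152 kb, had 151, 40 and 125 tags. Its per-kilobase change was -1.49 at 6 dpa and -0.28 at 9 dpa. Those nearest to si:rp71-84d19.3 (589 kb away), zgc:153372 (99.4 kb) and sssca1 (16.95 kb) had 235, 55 and 230 tags, 183, 49 and 146, and 291, 79 and 300. In the same order, their per-kilobase changes at 6 dpa were -0.72, -0.80 and -0.02. The called width of the region nearest to sssca1 went from 4946 bp to 1347 and 4695 bp. All 4 had an H3K9me3 peak both in uncut heart and at 6 dpa, beside 15.0% and 22.1% of all members at these times. All but the region nearest to si:rp71-84d19.3 had one at 9 dpa as well. The region near mtr, with the largest fall, had an H3K9me3 peak at 9 dpa alone (25 tags).

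At 9 dpa the largest falls included a wide member 8.33 kb upstream of the beta-arrestin gene arrb2a. This member had 804 tags over 6503 bp, 685 over 6621 bp at 6 dpa and 328 over 2588 bp at 9 dpa. The arrb2a promoter had no peak in the uncut list, then 80 and 132 tags. A member 62.2 kb from acvr2b, an activin receptor gene, had 74, 49 and 33 tags. Another, on chromosome 8 from 37986495 to 37989728, is nearest to a transcript without a symbol and had 151, 83 and 56. In the order named, the per-kilobase changes of these members at 9 dpa were -0.08, -0.44 and -0.10.

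Near genes of heart, repair and blood, the members were mostly steady, relative to the median shared region, where they had enough tags. The 12 gene lists hold 293 symbols, and 62 members had a gene of these lists as the nearest listed TSS within 50 kb. Nearness does not show which gene a region acts on. The log2 changes and intervals below are relative to the median shared region. On the background scale 0.46 is added to each at 6 dpa and 0.16 at 9 dpa, so which intervals hold 0 depends on the scale. Of the 62, 43 (69.4%) were overlapped at 6 dpa and 43 at 9 dpa, against 84.1% and 84.6% of all 2921 members within 50 kb of a listed TSS. They had fewer tags, with a median of 66 against 82. All 18 with at least 100 tags were overlapped at 6 dpa and 17 at 9 dpa, while of the 18 under 50 tags 8 and 4 were. A single one, near cdk1, was 2-fold higher at 6 dpa, none was 2-fold lower, and none passed 2-fold at 9 dpa. Among all members within 50 kb, 31 of 2457 were higher and 48 lower at 6 dpa, and 22 and 14 of 2472 at 9 dpa, so counts this low among 43 are near that background.

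Among contractile and calcium handling genes 7 members were found, and 4 of them had a peak at each later time. The richest lay on chromosome 8 from 40410658 to 40412805, 13.6 kb downstream of the TSS of myl7, which encodes a myosin regulatory light chain of the zebrafish heart. It had 205 tags in uncut heart, 256 at 6 dpa and 233 at 9 dpa. The log2 change was 0.24 (-0.03 to 0.50) and -0.01 (-0.28 to 0.26), so both intervals hold 0 relative to the median shared region. The myl7 promoter peak had fewer tags than this distal region, 89, 61 and 67.

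The member 6.88 kb upstream of the myoglobin gene mb had 176, 196 and 208 tags, while the mb promoter had 261, 64 and no peak. Near casq2, the calcium store protein calsequestrin, it was 60, 110 and 93, a log2 change of 0.79 (0.34 to 1.25) at 6 dpa and 0.44 (-0.03 to 0.90) at 9 dpa. The member near tnni1b, a troponin I gene, had 54, 46 and 55. The members near cmlc1 (45 tags), fhl2a (27) and zgc:101560 (29) had no later peak.

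Among cardiac transcription factors, gata5 had a member 23.2 kb downstream with 72, 91 and 78 tags, and its promoter had 292, 311 and 542. Near nkx2.5 the member had 50 tags, no 6 dpa peak and 39 at 9 dpa, and near zfpm2a, a GATA cofactor gene, 34, 40 and no 9 dpa peak. Of the 10 epicardial symbols 4 are genes that the lists name, and none of these was the nearest listed TSS of a member within 50 kb. Near endothelial genes, members at egfl7 (101, 108 and 129) and esama (61, 68 and 81) had peaks at all times, and those at ets1 (38) and klf2a (65) only in uncut heart.

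Matrix genes had 6 members, of which 3 were overlapped at 6 dpa and 4 at 9 dpa. Near the collagen cross-linking enzyme gene lox the counts were 104, 116 and 116, while the lox promoter had its first peak at 9 dpa (57 tags). Near col1a1a they were 46, 62 and 82, with a log2 change of 0.64 (counting standard error 0.27) at 9 dpa and -0.28 per kilobase. Near col1a2 they were 70, none and 42, a log2 change of -0.93 (-1.48 to -0.38) at 9 dpa and -0.43 per kilobase. Near col1a1b they were 49 and none later. The decorin gene dcn had 2, with 92, 71 and 109 tags, and 49 and none later.

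The AP-1 and immediate early list, genes switched on soon after a stimulus, had the most members, 12, of which 9 were overlapped at each time. The richest, on chromosome 3 from 33607657 to 33610842, lay 20.7 kb upstream of ier2 and had 355, 417 and 387 tags, with intervals of the log2 change that hold 0 at both times. Those near ier5 (203, 260 and 239), nr4a1 (153, 176 and 161), egr3 (139, 183 and 168), jund (107, 118 and 116) and atf3 (65, 60 and 59) were present throughout. So were those near fosb (60, 47 and 46) and a pair near dusp6 (76, 62 and 115, and 124, 141 and 158). The log2 change near ier5 was 0.27 (0.01 to 0.54) at 6 dpa, and near fosb -0.58 (-1.13 to -0.03) at 9 dpa. The other intervals of these members hold 0. The fosb promoter had 98 tags in uncut heart and no later peak. The egr3 promoter, 16.2 kb from its member, had a peak at 6 dpa alone (45 tags). The member near jun (40) and the pair near egr1 (40 and 56) had no later peak.

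Red cell and thrombocyte genes had 9 members, 8 of them overlapped at 6 dpa and 7 at 9 dpa. The richest was on chromosome 6 from 7935922 to 7937879, 42.9 kb downstream of klf1, a master regulator of red cell genes. It had 204 tags over 1958 bp, 337 over 3563 bp at 6 dpa and 288 over 2634 bp at 9 dpa, a log2 change of 0.64 (0.39 to 0.89) and 0.30 (0.04 to 0.56). Per kilobase these were -0.16 and -0.05. The klf1 promoter had 174, 232 and 499 tags. Members near gfi1b (175, 203 and 218) and tal1 (141, 173 and 142), transcription factors of blood formation, had intervals that hold 0 at both times. The one near the thrombopoietin receptor gene mpl had 66, 39 and 66, a log2 change of -0.84 (-1.41 to -0.27) at 6 dpa. Blood marker promoters had more tags in sum after amputation, as given above, and their part in these values was not tested.

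Cell cycle genes had 5 members, 4 overlapped at 6 dpa and all 5 at 9 dpa. That near the mitotic kinase gene cdk1, 16.0 kb downstream on chromosome 17, had 47 tags in uncut heart, 100 at 6 dpa and 99 at 9 dpa. The log2 change was 1.01 (0.51 to 1.51) and 0.88 (0.38 to 1.38), and per kilobase 0.18 and 0.16. The cdk1 promoter had no uncut peak, then 58 and 52 tags. The member near birc5a, which encodes survivin, had 86 tags, no 6 dpa peak and 87 at 9 dpa, whereas the birc5a promoter had none, 55 and 84. Near the replication licensing gene cdc6 the 2 members had 85, 80 and 85, and 73, 46 and 86. The second had a log2 change of -0.75 (-1.28 to -0.22) at 6 dpa and -0.71 per kilobase. Near the mitotic kinase gene aurka there were 68, 72 and 86.

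Regeneration signalling genes had 6 members. The richest, 35.2 kb upstream of zgc:85866 (the matricellular gene ccn1 in the GRCz12tu table), had 178 tags, then 236 at both times, a log2 change of 0.32 (0.04 to 0.61) and 0.21 (-0.07 to 0.49). Near socs3b, a brake on cytokine signalling, it was 114, 121 and 106, and near notch3 50, 62 and 74. The members near vegfc (37, 28 and none) and axin2 (32 and none later) were weak. Leukocyte and inflammation genes had 5 members. Of these, 4 stood within 37.6 kb of the NF-kB subunit gene rela. The richest had 99 tags, a score of 59.42 and no later peak. It starts at 693950 on chromosome 7, just after the member with 78 tags ends at 693942. Of the others, those with 78 and 85 uncut tags were present at all times (74 and 83, and 70 and 78). The one with 63 had no later peak. The remaining member of the leukocyte and inflammation list, near nfkbiaa, had 51, 42 and 68. Hypoxia and glycolysis genes had 4 members. Near egln3, an oxygen-sensing hydroxylase gene, the counts were 74, none and 86. Near aldoaa they were 66, 44 and 91, a log2 change of -0.67 (-1.22 to -0.12) at 6 dpa. Near pfkfb3 they were 44, 40 and none, and near hif1al 34 and none later.

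**Figure D5:**
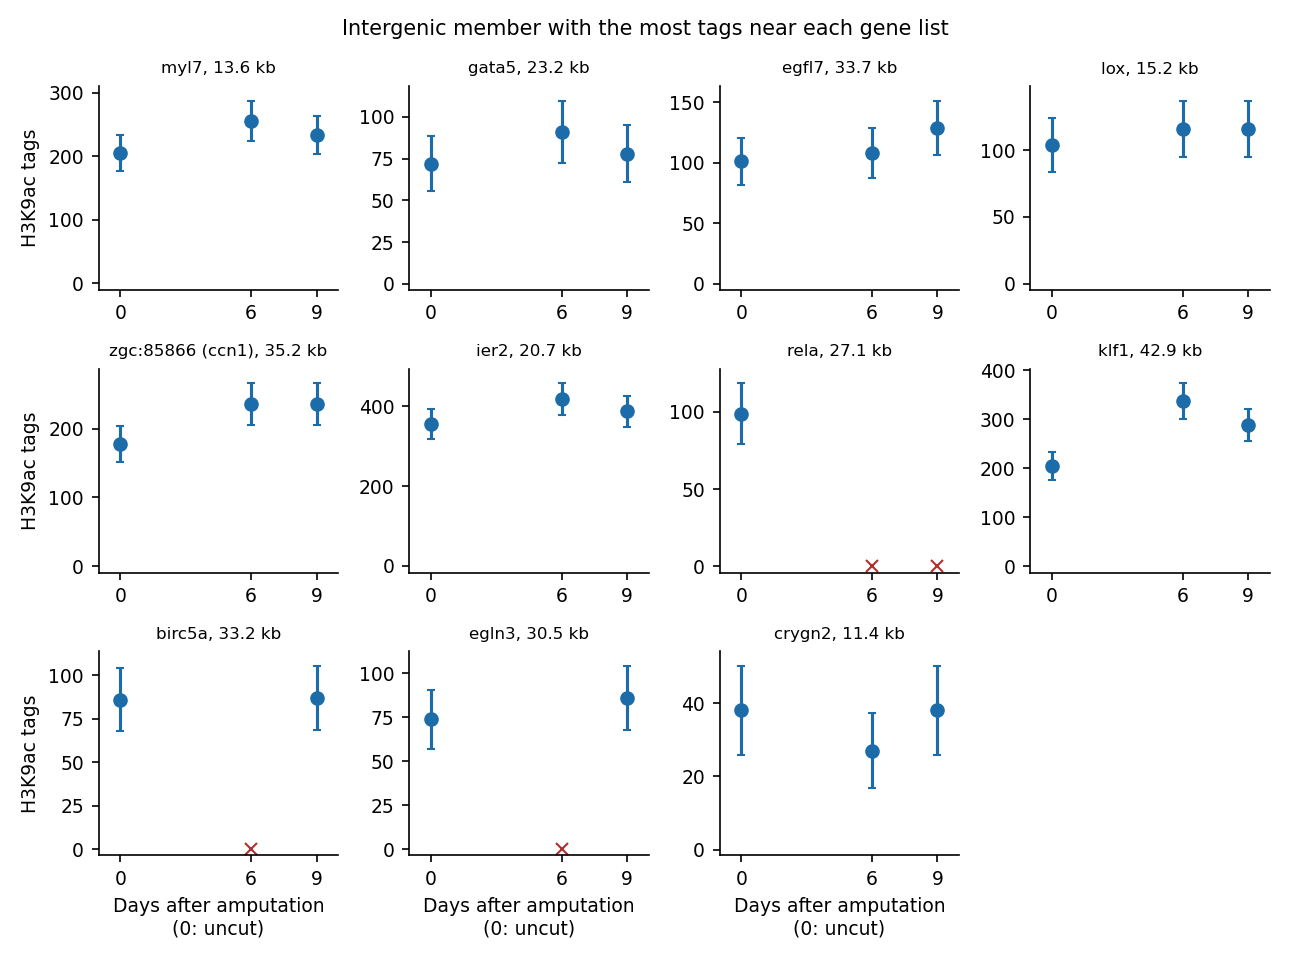
H3K9ac tags (y) in uncut heart (0) and at 6 and 9 days after amputation (x) for the member with the most uncut tags near a gene of each list that had one, with the gene and the distance in the panel title; bars are 95% counting intervals. A red cross marks a time with no overlapping peak, as for rela at both times and for birc5a and egln3 at 6 dpa; the member near klf1 has 204, 337 and 288 tags.

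Most members stood alone: 5042 (80.2%) had no other member within 10 kb, 441 pairs did, and 97 clusters held 3 or more. The 363 clustered members were overlapped in 82.1% at 6 dpa and 86.5% at 9 dpa, against 77.2% and 80.5% of single ones. Their median was 97 uncut tags, against 74.

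The largest cluster was a row of 13 members on chromosome 22 from 2013659 to 2114163. Neighbouring centres were 3.72 to 10.6 kb apart, with a median of 8.57 kb, and the peaks were 1091 to 1745 bp wide. All 13 had a peak at 6 and at 9 dpa, and none had an H3K9me3 peak. Summed tags were 1225, 1356 and 1404, and single members had 53 to 133 in uncut heart, 45 to 156 at 6 dpa and 80 to 147 at 9 dpa. The nearest listed TSS, of zgc:173693 and si:dkey-15h8.11, were 30.2 kb or more away.

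The next clusters were less steady. A row of 9 on chromosome 17 from 42619568 to 42682214, at least 342 kb from the TSS of gskip, had 94 to 798 uncut tags. Of these 6 were overlapped at 6 dpa and 9 at 9 dpa, 8 had an H3K9me3 peak in some list, and summed tags were 3104, 2284 and 3807. The 6 dpa sum leaves out the members with no peak then, which had 233, 260 and 474 tags in uncut heart. The sums of uncut heart and 6 dpa thus cover unlike sets of members. A row of 7 on chromosome 3 from 61103538 to 61155103, between 4.75 and 54.8 kb from the TSS of bri3, had 33 to 92 uncut tags, of which 4 were overlapped at 6 dpa and all 7 at 9 dpa, with no H3K9me3.

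Across chromosomes the members were spread unevenly. Density ran from 3.46 per Mb on chromosome 4 up to 28 Mb to 8.03 on chromosome 22, which held 315. The share overlapped at 6 dpa ran from 70.0% on chromosome 19 to 82.5% on chromosome 4, and at 9 dpa from 76.3% on chromosome 24 to 86.5% on chromosome 17. Uncut H3K9me3 met 9.74% of members on chromosome 14 and 21.2% on chromosome 9.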

How the data were processed

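Values came from 6 deposited peak lists, 1 for each mark and time. Per the submitters' processing notes, the tools were MACS 1.4.2, Bowtie2 2.2.5 and DiffBind 1.16.3 and the build danRer10; their settings, the control and read totals are not given in the sources used here. Per the file headers, the deposited tag count is the number of reads in a peak, without normalization, and the deposited score is 10 times the negated log10 of a peak's probability under its background, listed from 50 upward. The fold enrichment is the authors' ratio over local background. Coordinates are those of danRer10 as deposited.

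Overlaps used bedtools 2.31.1 (at least 1 bp). Overlapping uncut and later peaks were joined and their tags summed; log2 ratios were centred on the median of all shared regions, and their intervals are 95% Poisson intervals on the log scale. Shares have Wilson 95% intervals. The background is the commonest local density recovered from score and tags by the Poisson distribution. TSS are those of transcripts named in any list, and a promoter peak lies within 2 kb of one. The overlap, log2 change and background steps were checked on simulated lists. These kept uncut peaks at their own coordinates and dropped peaks without regard to tags. The check therefore does not cover loss of peaks with few tags or changes in called width.

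Members and gene lists were chosen with earlier results of these data known; bins of tags, score and distance and the H3K9me3 groups were chosen after seeing the data. Regions named were, by rule, the 8 members with the most tags, the 6 with the most tags and no later peak, the 5 largest rises and falls at each time (single matching peaks, at least 40 mean tags, same direction per kb), the richest near each gene list, the 3 with most tags and H3K9me3 at all times, and the 3 largest clusters. Other members near list genes were named after their values were seen. A region that this rule selects is not reported here.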

Additional observations from a re-analysis of the deposited data

How the results depend on the processing

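Of 38 alternatives, 12 left the value within its counting interval or 1.5 times the count and 26 moved it. Requiring a score of at least 100 left 3467 members, of which 94.2% were overlapped at 6 dpa and 97.2% at 9 dpa; the same limit on later peaks gave 59.2% and 59.3%, lists of equal length 75.3% and 78.6%, and members without H3K9me3 81.0% and 82.6%. The median log2 change at 6 dpa was 0.44 scaled to the background, -0.051 per kb and 0.022 without H3K9me3, and at 9 dpa 0.14 scaled to the background and 0.020 without H3K9me3. Members 2-fold higher and lower numbered 1 and 9 per kb and 331 and 24 on the background scale at 6 dpa, and 0 and 2, and 69 and 13, at 9 dpa. On the background scale all shared regions shift alike, and their share was not counted. Uncut H3K9me3 met 14.0% of members with 50% of the member covered and 7.68% with H3K9me3 scores of at least 100. With TSS of the uncut H3K9ac list alone, 42.7% lay within 50 kb of one. Joining within 5 kb left 20 clusters. The alternatives on H3K9me3 and on local background were chosen after seeing the data. No paired analysis was possible because each mark and time has 1 library. Members under 50 uncut tags were the most often without a later peak, and the part of depth in this was not tested. Tags count only reads inside the width that was called.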

Other observations

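The 628 intergenic uncut H3K9ac peaks on the long arm of chromosome 4 were not counted as members, but they are part of the shares over all uncut peaks and of the shared regions used for centring. Of the 1534 members with a score of 200 or more, 28 (1.83%) had no 6 dpa peak and 26 of these had one at 9 dpa, whereas 6 (0.391%) had no 9 dpa peak and 4 of these had one at 6 dpa. Among TSS peaks of that score it was 1 and 0 of 3588, and among peaks in a gene only 4 and 1 of 194. Of the 28, 21 had an H3K9me3 peak in some list, beside 326 of the 1534.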
